A study of Mus musculus with 6 samples.

Results

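Interferon-induced antiviral restriction factors are host proteins that block single steps of a virus's life cycle. The 9 described here are Mx1, Mx2, Rsad2, Cmpk2, Bst2, Isg20, Samhd1, Apobec3 and Zc3hav1. They were found by gene symbol in a table of 54532 genes, and all 9 were among the 13423 genes abundant enough to be tested. RNA sequencing measured them in cells that the study describes as mouse aortic smooth muscle cells (VSMCs), whose markers are given below. According to the study the cells were isolated by collagenase digestion from the abdominal aorta of wild-type mice and cultured in DMEM with fetal bovine serum. Its methods add that cells were serum-starved for in vitro experiments, without naming the sequenced samples. Both groups were of wild-type genotype, and both received an adenoviral vector. In 3 libraries, labelled Ad-Con, the vector carried a control plasmid. In the other 3, labelled Ad-PDK4, it carried an overexpression plasmid for pyruvate dehydrogenase kinase 4, which switches off pyruvate dehydrogenase in mitochondria. The study's text adds that all cells were then treated with angiotensin II, which the labels do not mention. It calls the 3 samples of a group biological replicates, while the labels name no separate animals or cultures, so the p-values measure the spread between these samples. No group without vector or without angiotensin II was analysed here. The study asked what more PDK4 does to gene expression in VSMCs.

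Type I interferons bind the receptor made of Ifnar1 and Ifnar2, and the kinases Jak1 and Tyk2 then activate STAT factors, Stat2 among them. These join Irf9 in a complex that binds the interferon-stimulated response element (ISRE) in promoters. Restriction factors are among the classical targets of this complex, and some of them, such as Rsad2, can also be switched on by interferon regulatory factors without interferon. In vascular cells, as in most nucleated cells, they can be present at a basal level and increase when viral nucleic acid or interferon is sensed.

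Levels are given as FPKM, fragments counted per length of gene and per size of library, which the authors had already scaled between libraries. The libraries held 17588942 to 21861872 reads, and 19650 to 20615 genes had at least 1 read. Replicates differed less from each other than the groups did, with a chi-square per degree of freedom of 3.99 to 10.9 within groups and 77.1 to 97.7 between them. The mouse Pdk4 gene went against the label. Pdk4 stood at 9.50, 10.4 and 10.1 FPKM in the Ad-Con libraries and at 7.67, 7.40 and 7.38 in the libraries labelled Ad-PDK4. It was lower in the latter by a log2 fold change of -0.42 (SE 0.06, adjusted p = 1.1e-03). The labels give neither the species nor the sequence of the vector's insert. For a PDK4 plasmid the study's methods name the primer pair that its primer list gives for mouse PDK4. They do not say that the adenoviral vector was made from this plasmid. Whether transcript from the vector was counted in this gene is not known, so these values cannot check the overexpression. Every direction below is therefore one between libraries named by their labels.

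All 9 restriction factors were higher in the libraries labelled Ad-PDK4. Each Ad-PDK4 library exceeded each Ad-Con library for all 9, where 27.8% of all tested genes showed this. At an adjusted p below 0.05, 9 of 9 rose and none fell, against 21.8% of all tested genes that rose. With a fold of at least 2 required as well, 7 of 9 were called higher, against 3.95% of all tested genes. Apobec3 and Zc3hav1 were the other two. The median log2 fold change of the members was 2.17, and that of all tested genes was -0.003. Fold changes are on the log2(FPKM + 0.1) scale, Ad-PDK4 over Ad-Con, and every adjusted p is from limma with Benjamini-Hochberg adjustment over all tested genes. These are bulk samples, so more cells with a transcript and more transcript per cell cannot be told apart.

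**Figure D1:**
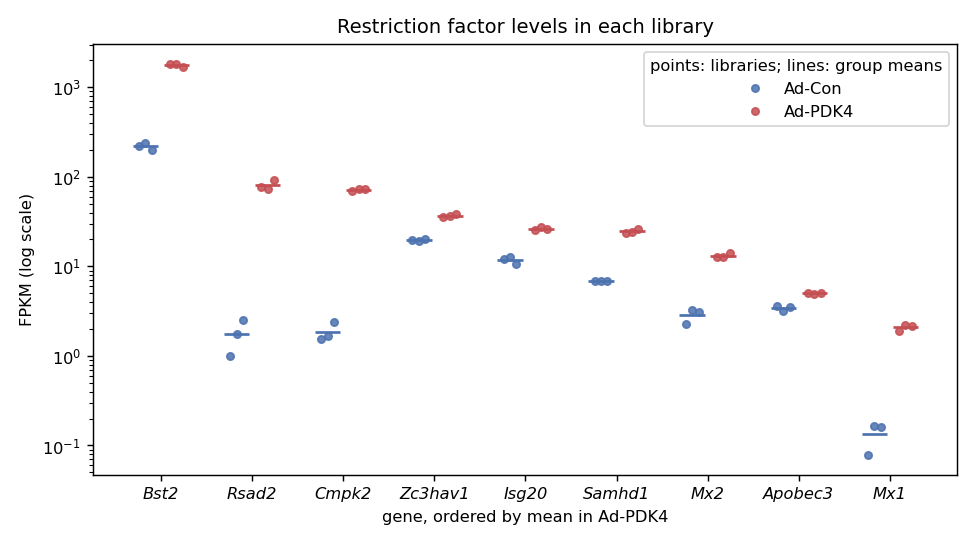
Level of each restriction factor in FPKM (log axis) in each of the 6 libraries, with genes ordered by their Ad-PDK4 mean. Points are libraries and short lines are group means, and for all 9 genes the 3 Ad-PDK4 points lie above the 3 Ad-Con points, from Bst2 at 1786 FPKM down to Mx1 at 2.08 FPKM in Ad-PDK4.

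Rsad2 and Cmpk2 showed the largest rises of the 9. Rsad2 encodes viperin, a radical S-adenosylmethionine enzyme that turns CTP into a chain terminator of viral RNA polymerases. Cmpk2 encodes a mitochondrial nucleoside monophosphate kinase that supplies CTP. The genes are neighbours on chromosome 12, Rsad2 at chr12:26442746-26456452 on the minus strand and Cmpk2 at chr12:26469204-26479837 on the plus strand (GRCm38), with 12751 bases and no other gene of the table between them. Their promoters are shown because the genes point away from each other across this gap and moved together, while the letters of an ISRE core were found in only one of them. Sequences are from RefSeq (GRCm38.p6), from 250 bases before to 50 bases after the annotated start, on the strand of the gene. Capitals mark the ISRE core, searched as GAAA, any 2 bases, GAAA on either strand.
Rsad2 promoter (chr12:26456403-26456702, minus strand): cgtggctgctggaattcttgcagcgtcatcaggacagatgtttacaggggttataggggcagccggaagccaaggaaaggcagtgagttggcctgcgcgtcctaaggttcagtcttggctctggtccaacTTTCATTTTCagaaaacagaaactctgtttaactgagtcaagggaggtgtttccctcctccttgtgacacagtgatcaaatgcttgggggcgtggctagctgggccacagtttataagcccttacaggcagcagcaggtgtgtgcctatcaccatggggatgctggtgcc
Cmpk2 promoter (chr12:26468965-26469264, plus strand): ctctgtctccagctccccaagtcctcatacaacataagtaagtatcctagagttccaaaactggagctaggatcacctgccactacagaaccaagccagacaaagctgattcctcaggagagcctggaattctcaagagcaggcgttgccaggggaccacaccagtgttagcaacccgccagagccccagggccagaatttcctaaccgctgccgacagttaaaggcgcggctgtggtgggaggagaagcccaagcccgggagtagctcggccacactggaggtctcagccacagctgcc

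Rsad2 stood at 0.997, 1.75 and 2.53 FPKM in the Ad-Con libraries and at 76.9, 73.5 and 91.5 FPKM in the Ad-PDK4 libraries. The groups lay far apart, the lowest Ad-PDK4 library being 29.0 times the highest Ad-Con library. The mean went from 1.76 ± 0.767 to 80.6 ± 9.52 FPKM (SD, n = 3 each), a ratio of 45.8. Its log2 fold change was 5.52 (SE 0.32, adjusted p = 1.1e-04), the 16th largest of all tested genes. In Ad-Con the gene rested on 88, 133 and 199 reads, and its level there varied more than in Ad-PDK4, with a coefficient of variation of 43.6% against 11.8%. Among 22047 protein-coding genes ranked by FPKM, Rsad2 moved from between places 9123 and 10739 in Ad-Con to between places 468 and 629 in Ad-PDK4.

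Cmpk2 stood at 1.53, 1.67 and 2.38 FPKM in Ad-Con and at 68.9, 72.9 and 73.8 FPKM in Ad-PDK4. As for Rsad2, replicate 3 was the highest and replicate 1 the lowest Ad-Con library. The mean rose from 1.86 ± 0.457 to 71.9 ± 2.60 FPKM (SD, n = 3 each), a ratio of 38.6. The log2 fold change was 5.22 (SE 0.15, adjusted p = 6.4e-07), the 21st largest of all tested genes. The log2 ratio of Rsad2 to Cmpk2 within a library was -0.57, 0.06 and 0.08 in Ad-Con and 0.16, 0.01 and 0.31 in Ad-PDK4. Apart from Ad-Con replicate 1 the genes thus kept nearly equal levels in each library. The ratio differed between the groups by 0.30 (SE 0.23), with p = 0.3 in an exact two-sided permutation test over 20 arrangements. With 3 libraries against 3 this test cannot go below 0.1.

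Mx1 and Mx2 encode dynamin-like GTPases that trap incoming viral nucleoproteins. Mouse Mx1 acts in the nucleus against influenza-type viruses and Mx2 in the cytoplasm. Most laboratory strains carry defective copies of both. The deposited table lists Mx1 as protein-coding and Mx2 as a polymorphic pseudogene, and RefSeq lists both as transcribed pseudogenes, so the values are transcript levels of these loci and say nothing of a protein. Mx1 lies at chr16:97447035-97462907 on the minus strand and Mx2 at chr16:97535308-97560900 on the plus strand, 72400 bases apart, and none of the 4 genes of the table between them was abundant enough to be tested.

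Mx1 was the least abundant of the 9 in both groups. It had 6, 11 and 11 reads in the Ad-Con libraries (0.0779, 0.166 and 0.160 FPKM) and 131, 146 and 179 reads in the Ad-PDK4 libraries (1.90, 2.20 and 2.14 FPKM). The groups did not overlap, and the mean rose from 0.135 ± 0.0492 to 2.08 ± 0.159 FPKM (SD, n = 3 each). The log2 fold change was 3.24 (SE 0.26, adjusted p = 5.4e-05). At this level the added 0.1 FPKM lowers the estimate, the fitted change being 9.44-fold and the ratio of means 15.5. With 1 FPKM added instead the log2 fold change was 1.44.

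Mx2 was present at 2.28, 3.29 and 3.10 FPKM in Ad-Con and at 12.7, 12.9 and 14.1 FPKM in Ad-PDK4. Ad-Con replicate 1 was the lowest library for both Mx genes. The Mx2 mean rose from 2.89 ± 0.536 to 13.2 ± 0.728 FPKM (SD, n = 3 each), with a log2 fold change of 2.17 (SE 0.13, adjusted p = 1.1e-05) and a ratio of means of 4.58. The log2 ratio of Mx2 to Mx1 was 3.74, 3.68 and 3.62 in Ad-Con and 2.68, 2.50 and 2.66 in Ad-PDK4. Mx2 thus exceeded Mx1 in each library, by less in Ad-PDK4. The ratio differed between the groups by -1.07 (SE 0.07), with p = 0.1 in the exact two-sided permutation test, the smallest it can give. This direction depended on the amount added before taking logs, since with 1 FPKM the difference was 0.44. That amount exceeds the mean Mx1 level of 0.135 FPKM in Ad-Con. With 0.01 FPKM added the difference was -1.71. Stretches of 50 bases shared between the genes covered 10.5% of the longest Mx1 transcript and 14.3% of the longest Mx2 transcript, and how the authors counted reads that match both was not stated.

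Bst2 encodes tetherin, a membrane protein that holds budding enveloped virions at the cell surface. It lies at chr8:71534255-71537456 on the minus strand. Its promoter is shown because it held 2 overlapping ISRE cores, at positions -130 and -124 from the start site and both on the strand of the gene, in the most abundant of the 9 genes.
Bst2 promoter (chr8:71537423-71537722, minus strand): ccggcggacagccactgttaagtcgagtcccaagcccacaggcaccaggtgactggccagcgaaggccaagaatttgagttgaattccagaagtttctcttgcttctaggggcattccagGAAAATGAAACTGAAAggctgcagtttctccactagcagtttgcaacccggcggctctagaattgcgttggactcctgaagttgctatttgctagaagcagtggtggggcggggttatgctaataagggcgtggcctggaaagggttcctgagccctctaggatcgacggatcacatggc

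Bst2 stood at 222, 237 and 200.0 FPKM in the Ad-Con libraries and at 1834, 1843 and 1681 FPKM in the Ad-PDK4 libraries. Replicate 3 was the lowest library in both groups, and the groups were far apart. The mean rose from 219.7 ± 18.7 to 1786 ± 91.0 FPKM (SD, n = 3 each), a ratio of 8.13. The log2 fold change was 3.02 (SE 0.07, adjusted p = 9.6e-08). Bst2 held place 157, 154 and 180 among protein-coding genes in the Ad-Con libraries and place 8 in each Ad-PDK4 library. It gave 80.2% to 82.9% of the summed FPKM of the 9 genes in Ad-Con and 85.8% to 88.0% in Ad-PDK4, where the sum rose from between 249 and 286 to between 1959 and 2097 FPKM. The increase in Bst2 alone came to 1566 FPKM.

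The remaining members act on nucleic acids or their building blocks, and all 4 were measurable in Ad-Con and had smaller fold changes than Bst2. Samhd1 hydrolyses deoxynucleoside triphosphates and so starves reverse transcription. It lies at chr2:157097533-157135265 on the minus strand. Its level was 6.82, 6.81 and 6.85 FPKM in Ad-Con and 23.8, 24.2 and 26.5 FPKM in Ad-PDK4. The Ad-Con libraries were nearly equal, with a coefficient of variation of 0.334%. The mean rose from 6.83 ± 0.0228 to 24.8 ± 1.44 FPKM (SD, n = 3 each), with a log2 fold change of 1.84 (SE 0.06, adjusted p = 3.8e-07) and a ratio of 3.63.

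Isg20 is an exonuclease that degrades single-stranded RNA from its 3′ end. It lies at chr7:78913424-78920396 on the plus strand. It stood at 12.2, 12.8 and 10.7 FPKM in Ad-Con and at 25.2, 27.4 and 26.0 FPKM in Ad-PDK4. The groups were clearly separate, the mean going from 11.9 ± 1.10 to 26.2 ± 1.11 FPKM (SD, n = 3 each). The log2 fold change was 1.14 (SE 0.08, adjusted p = 2.0e-05), with a 95% interval of 0.96 to 1.32. The estimate passed the limit of 2-fold, and its interval reached just below that limit.

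Zc3hav1 encodes the zinc-finger antiviral protein, which binds CpG-rich viral RNA and directs its decay. It lies at chr6:38305286-38354603 on the minus strand. Its level was 19.6, 19.4 and 20.1 FPKM in Ad-Con and 35.6, 36.2 and 38.6 FPKM in Ad-PDK4. Its replicates were close in both groups, with means of 19.7 ± 0.327 and 36.8 ± 1.60 FPKM (SD, n = 3 each). The log2 fold change was 0.90 (SE 0.05, adjusted p = 8.5e-06), with a 95% interval of 0.78 to 1.02. The rise passed the test, but its estimate stayed under 2-fold and its interval reached just above.

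Apobec3 encodes a cytidine deaminase that restricts retroviruses, and it changed least of the 9. It lies at chr15:79891659-79915906 on the plus strand. RefSeq gives it more than one start, and the promoter shown is the one with an ISRE core, which matched at position -140 on the opposite strand.
Apobec3 promoter (chr15:79892158-79892457, plus strand): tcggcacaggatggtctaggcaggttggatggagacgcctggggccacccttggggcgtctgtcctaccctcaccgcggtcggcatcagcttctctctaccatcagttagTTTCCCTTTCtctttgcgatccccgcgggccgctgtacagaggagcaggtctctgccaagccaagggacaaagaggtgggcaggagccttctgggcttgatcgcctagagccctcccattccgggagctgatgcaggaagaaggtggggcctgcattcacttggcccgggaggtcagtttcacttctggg

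Apobec3 stood at 3.59, 3.16 and 3.52 FPKM in Ad-Con and at 4.99, 4.97 and 5.01 FPKM in Ad-PDK4. The groups did not overlap, and the Ad-PDK4 libraries differed little. The mean rose from 3.42 ± 0.229 to 4.99 ± 0.0206 FPKM (SD, n = 3 each), with a log2 fold change of 0.53 (SE 0.08, adjusted p = 1.2e-03) and a 95% interval of 0.35 to 0.71, which lies below 2-fold throughout. The locus overlaps Cbx7 on the opposite strand, which had at most 106 reads in a library, and AC113595.1 on the same strand, which had at most 26. Apobec3 itself had 525 to 1046 reads. Whether the authors counted by strand was not stated. Short stretches shared with 331 other genes covered 6.45% of its longest transcript. Such stretches covered 1.88% in Samhd1 and 3.34% in Zc3hav1, and none in Rsad2, Cmpk2, Bst2 or Isg20.

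**Figure D2:**
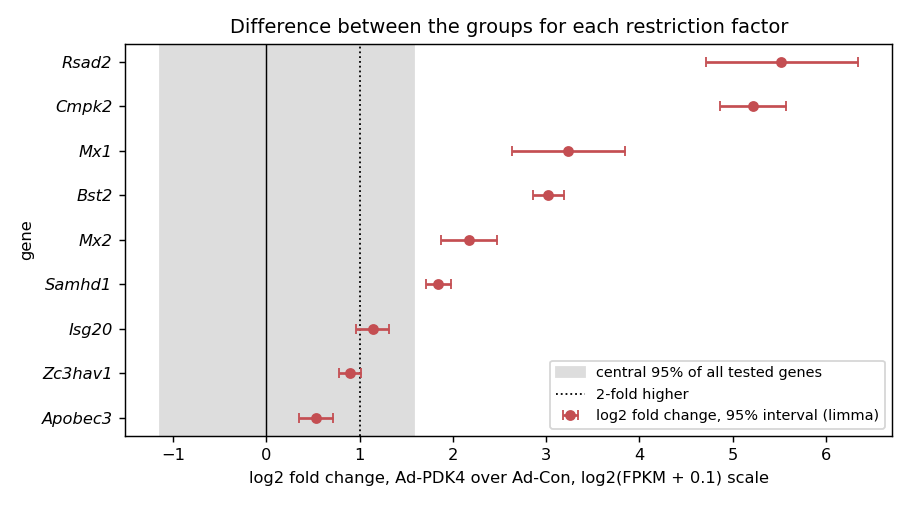
Log2 fold change of each restriction factor, Ad-PDK4 over Ad-Con on the log2(FPKM + 0.1) scale, with 95% intervals from limma (3 libraries per group). The grey band spans the central 95% of all tested genes, from -1.14 to 1.58, and Rsad2, Cmpk2, Mx1, Bst2, Mx2 and Samhd1 lie to its right, while Isg20, Zc3hav1 and Apobec3 lie within it.

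The members differed in level as well as in change. Ordered by mean FPKM in Ad-Con, Bst2 came first, followed by Zc3hav1, Isg20, Samhd1, Apobec3, Mx2, Cmpk2, Rsad2 and Mx1. Down to Apobec3 each gene's libraries lay above those of the next gene, and Mx1 lay below all others. Between Apobec3, Mx2, Cmpk2 and Rsad2, each gene's range of libraries overlapped that of the next. In Ad-PDK4 the order was Bst2, Rsad2, Cmpk2, Zc3hav1, Isg20, Samhd1, Mx2, Apobec3 and Mx1. Only the ranges of Rsad2 and Cmpk2, and those of Isg20 and Samhd1, overlapped there. Rsad2 and Cmpk2 thus moved from the lower end of the order to just under Bst2.

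The gene length behind FPKM was that of all exons of a gene joined, as GENCODE M21 gives them for each of the 9. This length exceeded the longest single transcript 3.10 times for Apobec3 and 2.33 times for Samhd1, so their FPKM lies low against genes with short models. On the longest transcript's length, mean Apobec3 became 10.6 and 15.5 FPKM in Ad-Con and Ad-PDK4, and mean Samhd1 15.9 and 57.8 FPKM. The Ad-Con order stayed the same on that scale. In Ad-PDK4 Cmpk2 at 91.4 FPKM then came before Rsad2 at 83.5 FPKM, and Samhd1 came before Zc3hav1 at 48.5 FPKM and Isg20 at 44.9 FPKM. Ratios of mean FPKM do not depend on this length. Fold changes with 0.1 FPKM added can depend on it where levels are low, as for Mx1 in Ad-Con.

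Of the 9 genes, 7 had a promoter in the RefSeq table, which named none for Mx1 and Mx2. An ISRE core was found in Rsad2, Bst2 and Apobec3, and not in the windows of Cmpk2, Isg20, Samhd1 and Zc3hav1. The motif was in 3 of the members' 10 promoters, and its share among all promoters of this length was 3.44%. Counted by gene, it was 3.70% of tested genes and 24.1% of tested genes called higher at a fold of at least 2. The gamma-activated site, searched as TTC, any 3 bases, GAA, reads the same on both strands. It was found in Bst2 at position -136, where it overlapped an ISRE core, and in Samhd1 at -235. For Isg20 it was found at -73 in only 1 of the promoters. These were 3 of the members' 10 promoters, against 8.30% of all promoters. By gene the site was found in 8.10% of tested genes and in 13.7% of those called higher. With an ISRE core, the log2 fold changes were 5.52 for Rsad2, 3.02 for Bst2 and 0.53 for Apobec3. Without one they were 5.22 for Cmpk2, 1.84 for Samhd1, 1.14 for Isg20 and 0.90 for Zc3hav1. Whether a core goes with the size of the change was not tested. A match describes letters only, and a window without one says nothing about binding elsewhere.

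Interferon transcripts themselves were scarce. Of 21 interferon ligand genes none was abundant enough to be tested, 17 had no read in any library, and 19 had at most 3 reads in any library. Ifnb1, which encodes interferon beta, had 0 reads in each Ad-Con library and 7, 5 and 5 reads in the Ad-PDK4 libraries. Its reads thus appeared in each Ad-PDK4 library and in no Ad-Con library, at counts too low for a fold change. Ifne had 1, 0 and 4 reads in Ad-Con and none in Ad-PDK4.

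Genes of interferon reception and signalling rose for the most part. Of 20 tested, 14 rose and none fell at an adjusted p below 0.05, against 21.8% of all tested genes that rose and 20.8% that fell. Rises of at least 2-fold were seen in 8, against 3.95% of all tested genes. The median log2 fold change of the list was 0.76. Of the receptor chains, Ifnar1 was near level, with a log2 fold change of 0.04 (SE 0.06, adjusted p = 0.64), at mean levels of 12.6 and 13.0 FPKM in Ad-Con and Ad-PDK4. Ifnar2, the other chain, rose from 9.33 to 21.9 FPKM with a log2 fold change of 1.22 (SE 0.05, adjusted p = 1.5e-06). Whether the changes of the chains differed was not tested, and Ifnar2 was chosen after its value was seen. The transcription factors of the complex had larger fold changes. Stat2 rose from a mean of 8.38 to 52.1 FPKM, by 2.62 (SE 0.06, adjusted p = 9.6e-08). Irf9, its partner in the ISRE-binding complex, rose from 9.88 to 29.7 FPKM, by 1.58 (SE 0.06, adjusted p = 6.7e-07).

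Irf7, the factor that amplifies the interferon response, showed the largest change of the list. It stood between 4.79 and 6.28 FPKM in the Ad-Con libraries and between 173 and 197 FPKM in the Ad-PDK4 libraries. Its log2 fold change was 5.00 (SE 0.10, adjusted p = 8.5e-08), close to that of Cmpk2. Usp18, a feedback inhibitor at the receptor, rose from 15.7 to 87.6 FPKM with a log2 fold change of 2.47 (SE 0.05, adjusted p = 6.6e-08). Irf3, which acts upstream of interferon, had 11.5 and 11.6 FPKM and a log2 fold change of 0.02 (SE 0.07, adjusted p = 0.88). Ifnlr1, the receptor of lambda interferons, had the lowest value at -0.38 (SE 0.16, adjusted p = 0.097).

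Most other antiviral effectors rose. Of 48 tested, 45 rose and none fell, 42 of them by at least 2-fold, and the median log2 fold change was 2.59. Among all tested genes 21.8% rose, 3.95% at least 2-fold. The largest rises were those of Ifi44 at 6.51, the nucleic acid sensor Zbp1 at 6.25 and Ifit1, which binds foreign RNA caps, at 5.05. Ifi44 rose from a mean of 0.233 to 30.2 FPKM, Zbp1 from 0.710 to 61.1 and Ifit1 from 12.5 to 403. Rsad2 and Cmpk2 lay in the same range of change, while Zc3hav1 and Apobec3 lay with the effectors that rose least, such as Plscr1 at 0.96 and Ifitm2 at 0.32, both chosen after their values were seen. Among those that did not pass the test were Ifitm1 at -0.00 (adjusted p = 1) and Nt5c3, a nucleotidase, at -0.07 (adjusted p = 0.61).

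**Figure D3:**
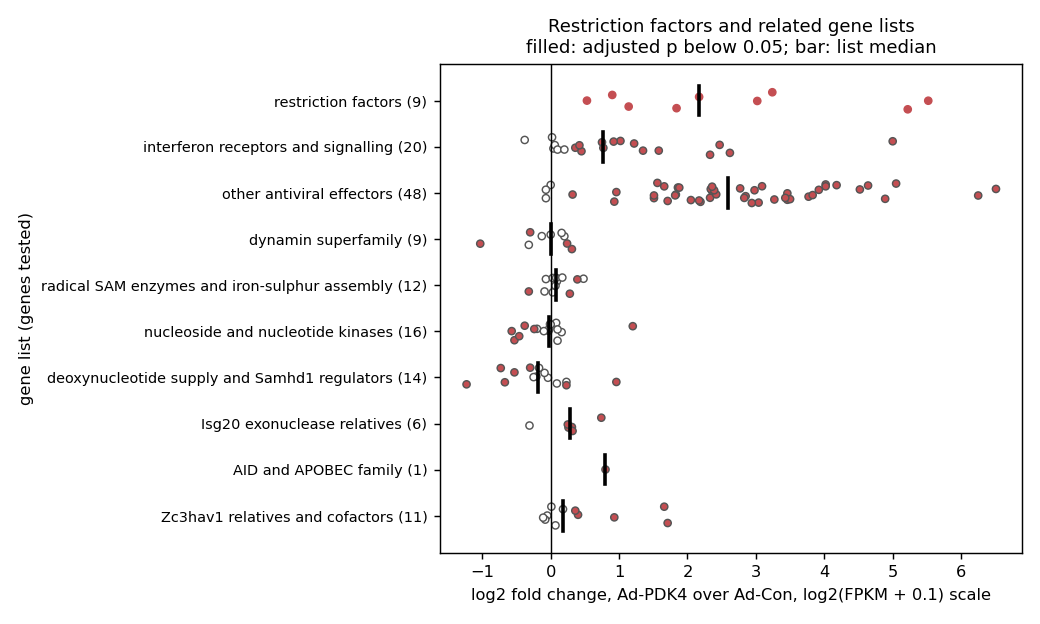
Log2 fold change, Ad-PDK4 over Ad-Con on the log2(FPKM + 0.1) scale, of each tested gene in the restriction factors and in 9 lists of related genes, with the number tested in brackets. Filled points have an adjusted p below 0.05 and bars are medians, which stood at 2.17 for the restriction factors, 2.59 for other antiviral effectors and between -0.19 and 0.79 for the other lists.

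Each restriction factor belongs to a larger protein family or pathway. Of 9 tested members of the dynamin superfamily, to which Mx1 and Mx2 belong, 2 rose, 2 fell and the median was 0.00. These counts are near the shares of all tested genes, 21.8% that rose and 20.8% that fell. Dnm2 rose by 0.31 (adjusted p = 0.011) and Mfn2 by 0.24 (adjusted p = 0.03), both on the log2 scale. Dnm1, which cuts endocytic vesicles, went from 27.6 to 13.5 FPKM with a log2 fold change of -1.03 (SE 0.08, adjusted p = 4.5e-05), and Mfn1 had -0.30 (adjusted p = 6.4e-03). Atl2 at 0.20 and Atl1 at -0.32 did not pass the test. Falls of at least 2-fold were seen in 2.68% of all tested genes.

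For Rsad2 the relatives were 12 radical S-adenosylmethionine enzymes and factors that build iron-sulphur clusters. Of these 2 rose, 1 fell, none by 2-fold, and the median was 0.07. Among all tested genes 21.8% rose and 20.8% fell. Mocs1 rose by 0.39 (adjusted p = 1.9e-03) and Ciao1, which helps load clusters into viperin, by 0.28 (adjusted p = 2.1e-03). Rsad1, a relative by name, had -0.32 (adjusted p = 0.021). Cdkal1 at 0.48 (adjusted p = 0.087), Elp3 at -0.09 and Tyw1 at -0.07 did not pass the test.

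For Cmpk2 the relatives were the kinases of nucleosides and nucleotides. Of 16 tested, 1 rose and 5 fell, against 21.8% of all tested genes that rose and 20.8% that fell. The median was -0.02. Ak4, a mitochondrial adenylate kinase, rose from 0.555 to 1.40 FPKM with a log2 fold change of 1.20 (SE 0.22, adjusted p = 3.5e-03). Dguok at 0.16 and Nme2 at 0.10 did not pass the test. The lowest values were those of Ak3 at -0.57 (adjusted p = 9.4e-04), Tk1 at -0.53 (adjusted p = 0.011) and Nme4 at -0.46 (adjusted p = 2.7e-03). Cmpk1, the cytosolic counterpart of Cmpk2, had 10.2, 9.53 and 10.9 FPKM in Ad-Con and 9.37, 7.52 and 9.84 FPKM in Ad-PDK4. Its groups overlapped, its log2 fold change was -0.20 (adjusted p = 0.16), and it was chosen after its value was seen. In Ad-Con Cmpk1 lay above Cmpk2 in each library, and in Ad-PDK4 below it.

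For Samhd1 the list held 14 genes that make or remove deoxynucleotides or that control Samhd1 through the cell cycle. Of these 2 rose and 5 fell, against 21.8% of all tested genes that rose and 20.8% that fell. The median was -0.19. Pnp rose by 0.96 (adjusted p = 1.2e-03) and Cdkn1a, an inhibitor of cyclin-dependent kinases, by 0.23 (adjusted p = 0.022), while Tyms at 0.23 (adjusted p = 0.18) did not pass the test. Ccna2, the cyclin whose kinase phosphorylates Samhd1, went from 2.76 to 1.11 FPKM with a log2 fold change of -1.23 (SE 0.16, adjusted p = 5.7e-04). Dctpp1 had -0.73 (adjusted p = 9.5e-04). Rrm2, a subunit of ribonucleotide reductase, had -0.67 (adjusted p = 0.047).

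Relatives of the other three were few. Of 6 tested exonucleases related to Isg20, 5 rose, none by 2-fold, against 21.8% of all tested genes that rose. The median was 0.28. Aen rose by 0.74 (adjusted p = 6.7e-05), Rexo4 by 0.32 (adjusted p = 0.011) and Isg20l2 by 0.31 (adjusted p = 0.018), while Rexo5 at -0.31 (adjusted p = 0.16) did not pass the test. Of 4 further genes of the AID and APOBEC family only Apobec1 was abundant enough to be tested, and it rose by 0.79 (SE 0.08, adjusted p = 2.1e-04), from 5.87 to 10.3 FPKM.

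For Zc3hav1 the list held 11 relatives and cofactors, of which 5 rose, 2 of them by at least 2-fold, none fell, and the median was 0.18. Among all tested genes 21.8% rose, 3.95% at least 2-fold, and 20.8% fell. Parp12, a zinc-finger relative, rose by 1.71 (adjusted p = 4.7e-06) and Trim25, a ubiquitin ligase that Zc3hav1 needs, by 1.66 (adjusted p = 1.5e-06). Both were also among the 48 other antiviral effectors. N4bp1, a ribonuclease, rose by 0.93 (adjusted p = 1.1e-05). Its relative Khnyn, the endonuclease partner of Zc3hav1, had -0.08 (adjusted p = 0.34), Exosc5 had -0.11 (adjusted p = 0.49), and Zc3hav1l, the neighbouring paralogue, had -0.05 (adjusted p = 0.66).

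The genes beside the restriction factors were looked at as well. Taking the nearest tested protein-coding gene on each side gave 14 genes outside the 9. Of these 3 rose, 2 fell and 9 did not pass the test, a share of rises near the 21.8% of all tested genes, and no rise reached 2-fold. The rises were those of Rnf144a beside Rsad2 at 0.95 (adjusted p = 4.4e-04), Aen beside Isg20 at 0.74 and Mvb12a beside Bst2 at 0.27 (adjusted p = 4.1e-03). Bace2 beside Mx1 fell from 1.20 to 0.282 FPKM with a log2 fold change of -1.76 (SE 0.24, adjusted p = 7.9e-04), and Mfge8 beside Isg20 had -0.69 (adjusted p = 4.4e-05). Bace2 lies 4098 bases from Mx1, so genes close to each other changed in opposite directions. Colec11, the nearest tested gene on the other side of Cmpk2, lies 2114335 bases away and had -0.12 (adjusted p = 0.24).

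**Figure D4:**
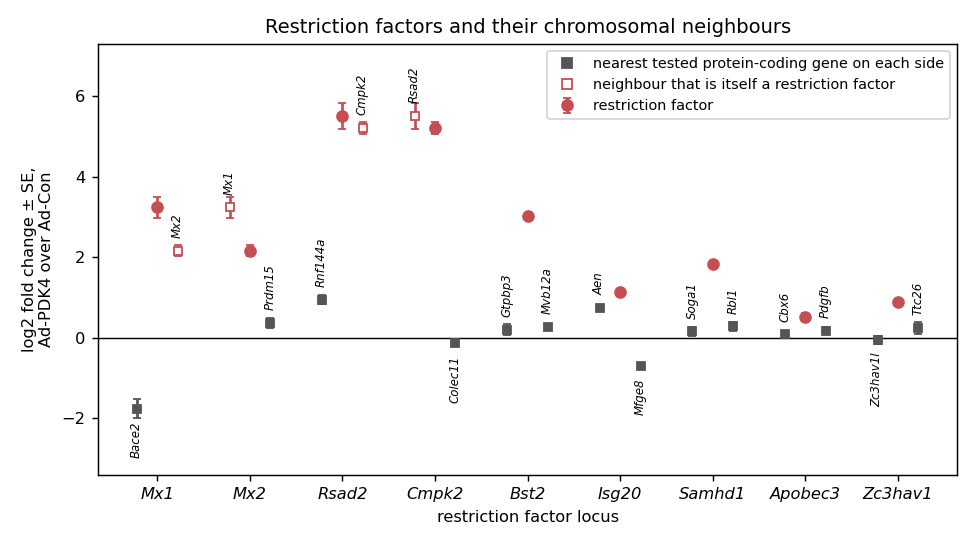
Log2 fold change with SE, Ad-PDK4 over Ad-Con on the log2(FPKM + 0.1) scale, of each restriction factor (circle) and of the nearest tested protein-coding gene on each side of it (squares, open where the neighbour is itself a restriction factor). The 14 other neighbours lie between -1.76 (Bace2) and 0.95 (Rnf144a).

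Within the groups no single library was highest or lowest for all 9 genes. Ad-PDK4 replicate 3 was the highest of its group for 6 of the 9 and the lowest for Bst2, and Ad-PDK4 replicate 1 was the lowest for 6. Ad-Con replicate 1 was the lowest of its group for Mx1, Mx2, Rsad2 and Cmpk2. For these 4 genes the coefficient of variation in Ad-Con was 36.5%, 18.5%, 43.6% and 24.5%, while it was at most 9.26% for the other 5. Each called member was still called without any single library.

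The genes whose pattern over the 6 libraries was most like the mean of the standardised members were Wisp2, Fgf10, Gbp2, Lgals9 and Gbp3, with a Pearson r of 0.9997 to 0.9999. The pattern is mostly a difference between 2 groups, and 405 tested genes had an r over 0.99, so a high r describes any gene that rose with little spread. Gbp2 and Gbp3 are interferon-induced guanylate-binding proteins. They rose from 11.4 to 111 FPKM and from 6.94 to 99.8 FPKM. Wisp2, a secreted matricellular protein, rose from 7.82 to 31.4 FPKM, Fgf10 from 1.63 to 7.87 and the galectin Lgals9 from 55.2 to 134.

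The labelled cell type was checked by its markers. Of 10 smooth muscle markers only 4 were abundant enough to be tested, and Myh11, the defining myosin of contractile smooth muscle, had at most 10 reads in a library. Tagln had at most 20 reads and Cnn1 at most 30. Acta2 was present at a mean of 78.0 FPKM in Ad-Con and 36.2 FPKM in Ad-PDK4, and the summed level of the list was 116 to 117 FPKM against 63.6 to 71.2 FPKM. The summed level of 8 fibroblast markers was 1431 to 1556 FPKM in Ad-Con and 739 to 806 FPKM in Ad-PDK4, with Col1a1 at 1055 and 435 FPKM. These sums rest mainly on Col1a1 and Acta2. Of 7 fibroblast markers tested, 5 fell and 1 rose at an adjusted p below 0.05, with a median log2 fold change of -1.16. Falls of at least 2-fold were seen in 4 of them. Of the 4 smooth muscle markers tested, 2 fell and none rose. Among all tested genes 20.8% fell, and 2.68% fell at least 2-fold. Of the fibroblast markers Dcn rose from 90.1 to 161 FPKM (log2 fold change 0.83, adjusted p = 4.0e-04) and Pdgfra had -0.05 (adjusted p = 0.54), and of the smooth muscle markers Smtn had 0.02 (adjusted p = 0.84). The part of these cells in the result was not tested.

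Restriction factors are abundant in immune cells, and Bst2 also marks plasmacytoid dendritic cells in mice. Of 14 macrophage markers 6 had no read in any library, among them Ptprc, Itgam and Tyrobp, and the summed level was 27.9 to 31.1 FPKM in Ad-Con and 24.9 to 27.7 FPKM in Ad-PDK4. Within that sum Cd14 rose from 12.8 to 18.8 FPKM (log2 fold change 0.55, adjusted p = 2.7e-04) and Cd68 fell from 14.2 to 4.24 FPKM (log2 fold change -1.74, adjusted p = 4.4e-04). Csf1r, too low to be tested at no more than 62 reads in a library, had a mean of 0.258 FPKM in Ad-Con and 0.640 FPKM in Ad-PDK4. Its groups did not overlap, and 27.8% of all tested genes had every Ad-PDK4 library above every Ad-Con library. Of 8 plasmacytoid dendritic cell markers, Siglech and Flt3 had no read, and the summed level was 12.0 to 12.7 FPKM against 11.6 to 12.9 FPKM. That sum is nearly all Tcf4 and Runx2, which other cells express as well. Spib, also too low to be tested, stood at 0.120, 0.0596 and 0.192 FPKM in Ad-Con and at 0.805, 0.618 and 0.979 FPKM in Ad-PDK4. It had at most 62 reads in a library, and its groups did not overlap, which 27.8% of all tested genes showed in this direction. Of 10 endothelial markers Tie1, Emcn and Cldn5 had no read, with sums of 1.24 to 1.56 FPKM against 1.32 to 1.56 FPKM. The 10 lymphocyte markers summed to 0.0741 to 0.279 FPKM against 0.0535 to 0.185 FPKM. The part of any of these cell types in the result was not tested.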

How the data were processed

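RNA-seq was analysed for 3 Ad-Con and 3 Ad-PDK4 libraries, grouped by their treatment labels. The deposited values are FPKM, made by the authors for each library from counts and gene length. The submitters' processing notes name CASAVA 1.8, fastp, HISAT2 2.0.5, featureCounts 1.5.0-p3 and DESeq2 1.20.0, and the build GRCm39. Of the gene identifiers 54409 are in GENCODE M21 (GRCm38), 98.3% with the same coordinates, so coordinates are given on GRCm38. FPKM times gene length gave whole reads within 0.01 reads for 100.0% of non-zero values in each library, with the library size already scaled by size factors. For paired-end data a read stands here for a counted fragment. The labels name a SMARTER kit and the methods a NEBNext kit. Authors' counting of strand and of reads matching several genes was not stated.

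Log2(FPKM + 0.1) was fitted with limma 3.58.1 in R 4.3.3 (trend and robust moderation, no covariate) over genes whose FPKM averaged 0.5 or more, with Benjamini-Hochberg adjustment. Calls needed an adjusted p below 0.05 and, where stated, a fold of at least 2. Intervals are 95% and cover these samples. Ratios between genes were compared by exact two-sided permutation. Promoters, of 300 bases, were searched in Python 3.11.15. Shared sequence was counted in stretches of 50 bases.

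The members, lists, tests and alternatives were chosen with earlier results of these data known. Genes named were Pdk4, the 9 members, Stat2, Irf9, Irf7, the 3 largest rises and falls in each list of related genes, the 5 genes most like the members and interferons with over 3 reads. Some genes that this rule names are not reported here. Marker genes and neighbours were fixed by list and position, and the markers given with values were chosen after these were seen. The 16 alternatives were pseudocounts of 1 and 0.01, other filters (none, or a mean FPKM of 5), 3 rescalings (TPM, median of ratios, quantiles), moderation without trend, a replicate block, limma-voom on the recovered reads and leaving out each library.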

Additional observations from a re-analysis of the deposited data

How the results depend on the processing

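Between 6 and 7 of the 9 restriction factors were called higher under all 16 alternatives. The 6 came with a minimum mean FPKM of 5, which leaves Mx1 and Apobec3 untested. Every member that could be tested kept its direction and an adjusted p below 0.05 throughout. The log2 fold change ranged from 1.44 to 3.98 for Mx1, from 4.92 to 5.82 for Rsad2 and from 4.68 to 5.40 for Cmpk2, and the largest adjusted p of any member was 6.8e-03 (limma, Apobec3).

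With a pseudocount of 1 the difference between Mx2 and Mx1 turned to 0.44, as this amount exceeds the Mx1 level in Ad-Con. There 153 genes were called lower in place of 360, and 0 in the related lists in place of 2. A minimum mean FPKM of 5, which tests fewer genes, gave 258 higher in place of 530, 114 lower and 1 lower in the related lists. Rescaling to TPM also left 1 lower in the related lists. Leaving out a library gave 1 to 2 there, 1 without Ad-PDK4 replicate 1 or replicate 3; the cause was not tested. The median of all genes tested moved between -0.035 and 0.037.

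Libraries with the same replicate number did not deviate together (r = -0.046, -0.031 and -0.001), and 0 of 6 correlated best with their own number. With the replicate number as a block 529 genes were called higher, 354 lower and 7 members higher, and no member's call changed.

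With 3 libraries a group the exact test cannot go below 0.1. Intervals cover the spread of these samples only. Mx1 in Ad-Con and Ifnb1 rest on few reads.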
